A study of Mus musculus with 31 samples.

Results

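Transcripts that were present in wild-type (WT) clones of a mouse cell line and far lower, and often close to the detection floor, in most libraries of clones carrying the R98S form of the ribosomal protein RPL10 were described in total mRNA and in polysomal RNA. They are S100a4, F13a1, Olfm3, Ank3, Gstm2, Hemgn, Cadm4, Nos1ap, Myof and Gpr34, 10 of the 41255 gene symbols in each of the deposited tables, and all 10 were found in both. They were picked by symbol because of their levels in WT and R98S libraries of these same data, so the difference between the genotypes is given below as a description, with no test. The cells were Ba/F3, an interleukin-3 dependent line labelled as mouse lymphoid. In all 6 clones the mouse Rpl10 had been knocked down by shRNA, and human RPL10, as WT or with arginine 98 changed to serine (R98S, an alteration found in T-cell acute lymphoblastic leukemia), had been introduced with a retrovirus. Each clone is a single-cell derived culture, namely WT clones 28, 29 and 36 and R98S clones 11, 13 and 35, with libraries numbered 1 to 3. The 31 libraries comprise 9 R98S and 8 WT libraries of total mRNA, and 8 R98S and 6 WT libraries of polysomal RNA, which is RNA from the gradient fractions holding at least 2 ribosomes. A number 1 total mRNA library of WT clone 36, which the study set aside because it clustered with the R98S libraries, was not analysed here, so the WT group is one from which a library was removed for its profile.

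A total of 9338671 to 22059792 reads was recovered for each total mRNA library and of 8831180 to 20754046 for each polysomal library. All levels are read counts divided by the size factor of the library (normalized counts), and 3 reads corresponded to between 1.81 and 5.14 normalized counts. Rpl10, as counted on the mouse gene, ranged from 620.3 to 5715 normalized counts in WT and from 901 to 2984 in R98S total mRNA. Of 14 pro-B cell markers only Cd79a and Cd79b had a mean of at least 10, whereas 7 markers including Pax5, Rag1 and Il7r were at 0 in every WT total mRNA library. The 9 mast cell and basophil markers summed to between 19109 and 38863 in WT and between 14646 and 81474 in R98S total mRNA. Cma1 had a mean of 3449 in WT and 22068 in R98S there. Gata2, which is also in the erythroid and megakaryocyte list used below, made up most of the WT sums. Its mean was 22529.5 in WT and 19415.5 in R98S. In each group 6 of the 9 had a mean of at least 10. Kit was at 0 in every WT library and Tpsb2 in every R98S library of total mRNA. The 9 T cell markers summed to between 38.4 and 246 in WT and between 84.8 and 155 in R98S total mRNA, and to between 37.7 and 73.2 in WT and between 87.5 and 361 in R98S polysomal RNA, where the groups did not overlap. Only 3 of the 9 in WT and 2 in R98S total mRNA had a mean of at least 10, and 2 in each group of polysomal RNA. The highest mean in R98S polysomal RNA was that of Cd3d, at 111. Marker lists of other cell types were summed in the same way, with no test between the genotypes. The 16 monocyte and macrophage markers, led by Emr1, summed to between 2701 and 6946 in WT and between 298 and 3606 in R98S total mRNA. In polysomal RNA they summed to between 1889 and 3704 in WT and between 403 and 1367 in R98S, where the groups did not overlap. Most of these sums was Emr1 alone, with a mean of 4497 in WT and 1232 in R98S total mRNA. In polysomal RNA Emr1 was at 1557 to 3341 in WT and at 260 to 1202 in R98S, so the sums largely describe 1 gene. In total mRNA 6 of the 16 had a mean of at least 10 in WT and 3 in R98S, with C1qa, C1qb and Ms4a7 at 0 in every WT library. The 9 granulocyte markers, led by Prtn3, summed to between 346 and 1586 in WT and between 45.3 and 1427 in R98S total mRNA, and to between 202 and 1991 in WT and between 68.2 and 579 in R98S polysomal RNA. None of the 9 was at 0 in every WT total mRNA library. The part of these cell types in the results below was not tested.

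The 10 genes belong to different families. S100a4 is a small calcium-binding protein that binds non-muscle myosin and is found in motile cells and macrophages, and F13a1 is the catalytic A subunit of coagulation factor XIII, a transglutaminase that crosslinks fibrin and is made by megakaryocytes and macrophages. Hemgn (hemogen) is a nuclear protein of hematopoietic progenitors and the erythroid lineage, and Gpr34 is a G protein-coupled receptor for lysophosphatidylserine known from microglia and mast cells. Ank3 (ankyrin-G) ties membrane proteins to the spectrin skeleton, Myof (myoferlin) is a ferlin that acts in membrane fusion and repair, and Cadm4 is an immunoglobulin-type cell adhesion molecule. Gstm2 is a mu class glutathione transferase, Nos1ap is an adaptor protein that binds neuronal nitric oxide synthase, and Olfm3 is a secreted olfactomedin glycoprotein. In polysome profiling, the ratio of the polysomal to the total level of a transcript is read as a measure of how much of it carries several ribosomes.

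The genes lie on 8 chromosomes of the mouse genome (GRCm38, GENCODE M21 annotation). S100a4 (ENSMUSG00000001020) is at chr3:90603771-90606045, Olfm3 (ENSMUSG00000027965) at chr3:114904078-115125722 and Gstm2 (ENSMUSG00000040562) at chr3:107981702-107986453. F13a1 (ENSMUSG00000039109) is at chr13:36867178-37050244, Ank3 (ENSMUSG00000069601) at chr10:69398773-70027438 and Hemgn (ENSMUSG00000028332) at chr4:46393989-46413506. Cadm4 (ENSMUSG00000054793) is at chr7:24482023-24504539, Nos1ap (ENSMUSG00000038473) at chr1:170302668-170589861, Myof (ENSMUSG00000048612) at chr19:37899036-38043577 and Gpr34 (ENSMUSG00000040229) at chrX:13632089-13640858, inside the Cask gene on the other strand and with no exonic base shared with it. S100a4 shares 51.7% of its exonic sequence with Gm42674, a gene on the same strand that is not a row of the tables. Of the other members, Nos1ap shares 2.36% with Gm7694 on the same strand and F13a1 1.10% with genes on the opposite strand, and Gstm2 shared 5.65% of its 50-base stretches with other transcripts, most with Gm12499.

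Promoter sequences (RefSeq, GRCm38.p6, 250 bases before to 50 bases after the annotated start) were at hand for 8 members, S100a4, F13a1, Olfm3, Gstm2, Hemgn, Cadm4, Nos1ap and Myof, and are shown for 4 of them namely the most abundant and the most reduced transcript and the 2 members in which more than one of the GATA, Runx and AP-1 motifs was found. S100a4 (chr3:90603520-90603819, plus strand) was the transcript with the lowest share of its WT level in total mRNA, and F13a1 (chr13:37050195-37050494, minus strand) the most abundant one. In their promoters capitals mark CG dinucleotides, of which there were 2 and 3.
S100a4: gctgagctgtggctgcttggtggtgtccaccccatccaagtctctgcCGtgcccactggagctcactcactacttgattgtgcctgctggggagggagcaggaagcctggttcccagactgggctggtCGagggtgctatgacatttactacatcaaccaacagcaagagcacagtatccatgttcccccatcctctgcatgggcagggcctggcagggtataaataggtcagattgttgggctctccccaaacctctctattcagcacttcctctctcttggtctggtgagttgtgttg
F13a1: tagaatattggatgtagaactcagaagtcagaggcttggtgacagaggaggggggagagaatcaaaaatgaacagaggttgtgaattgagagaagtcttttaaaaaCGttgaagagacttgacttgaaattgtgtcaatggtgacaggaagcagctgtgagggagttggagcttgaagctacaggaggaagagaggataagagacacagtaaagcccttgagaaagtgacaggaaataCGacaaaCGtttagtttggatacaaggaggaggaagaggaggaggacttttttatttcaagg
The median over the 8 members, at the first listed start of each, was 4.5 CG dinucleotides. The median over 27025 promoters of the same length was 7, and Cadm4 was at 40.

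In the promoters of Hemgn (chr4:46404134-46404433, minus strand) and Nos1ap (chr1:170557061-170557360, minus strand, one of 2 annotated starts), capitals mark matches on either strand to a GATA factor motif spelled AGATAA, a Runx motif spelled TGTGGT and an AP-1 motif spelled TGANTCA, which do not overlap each other there.
Hemgn: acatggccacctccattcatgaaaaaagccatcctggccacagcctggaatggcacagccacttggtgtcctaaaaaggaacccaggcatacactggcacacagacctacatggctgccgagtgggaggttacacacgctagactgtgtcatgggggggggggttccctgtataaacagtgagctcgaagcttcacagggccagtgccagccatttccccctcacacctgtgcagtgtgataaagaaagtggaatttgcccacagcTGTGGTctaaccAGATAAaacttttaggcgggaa
Nos1ap: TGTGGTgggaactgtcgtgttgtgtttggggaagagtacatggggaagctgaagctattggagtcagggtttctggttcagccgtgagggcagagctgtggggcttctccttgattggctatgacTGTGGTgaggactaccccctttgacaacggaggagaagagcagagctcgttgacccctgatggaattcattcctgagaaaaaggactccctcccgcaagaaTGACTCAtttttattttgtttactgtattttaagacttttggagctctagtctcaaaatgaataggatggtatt
At the leading annotated start, AGATAA was found in 1 of the 8 members (Hemgn) and in 11.4% of all promoters. TGTGGT was found in 3 (Hemgn, Nos1ap and Myof) and in 16.9% of all promoters, TGANTCA in 1 (Nos1ap) and in 7.93%, and the E-box CANNTG in 5 and in 72.1%. None of these 4 motifs was found in all 8 promoters.

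F13a1 and S100a4 were the 2 abundant members in WT clones. Per kilobase of merged exon, the WT mean in total mRNA was 3193 normalized counts for F13a1 and 2755 for S100a4, and the ranges of their WT libraries overlapped. Gstm2 followed at 124 per kilobase, Gpr34 at 120.02, Hemgn at 109.7, Olfm3 at 43.0, Cadm4 at 34.4, Nos1ap at 16.02, Myof at 8.82 and Ank3 at 5.97. S100a4 and Gstm2 were the only neighbours in this order whose WT ranges did not overlap.

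In total mRNA, 6 of the 10 members (S100a4, Olfm3, Ank3, Gstm2, Hemgn and Cadm4) had every R98S library below every WT library, a pattern found in 1.46% of the 11133 genes whose mean over the libraries reached 10. In polysomal RNA it held for 9 of the 10, all but Gpr34, against 1.92% of 10707 genes, a background that leaves out Nos1ap, whose polysomal mean was under 10. In bulk RNA fewer expressing cells and less RNA per cell cannot be told apart. These counts only restate how the transcripts were chosen. Of the 90 member values in R98S total mRNA libraries, 83 lay below every WT library of the same transcript and 39 were at 3 reads or fewer, against 0 of 80 WT values. The R98S median was at 3 reads or fewer for 6 members, while F13a1 (median 782) had no R98S library and Myof (median 13.1) 1 library at that level. In polysomal RNA 79 of 80 R98S values lay below every WT library, and 54 of them were at 3 reads or fewer, against 1 of 60 WT values.

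**Figure D1:**
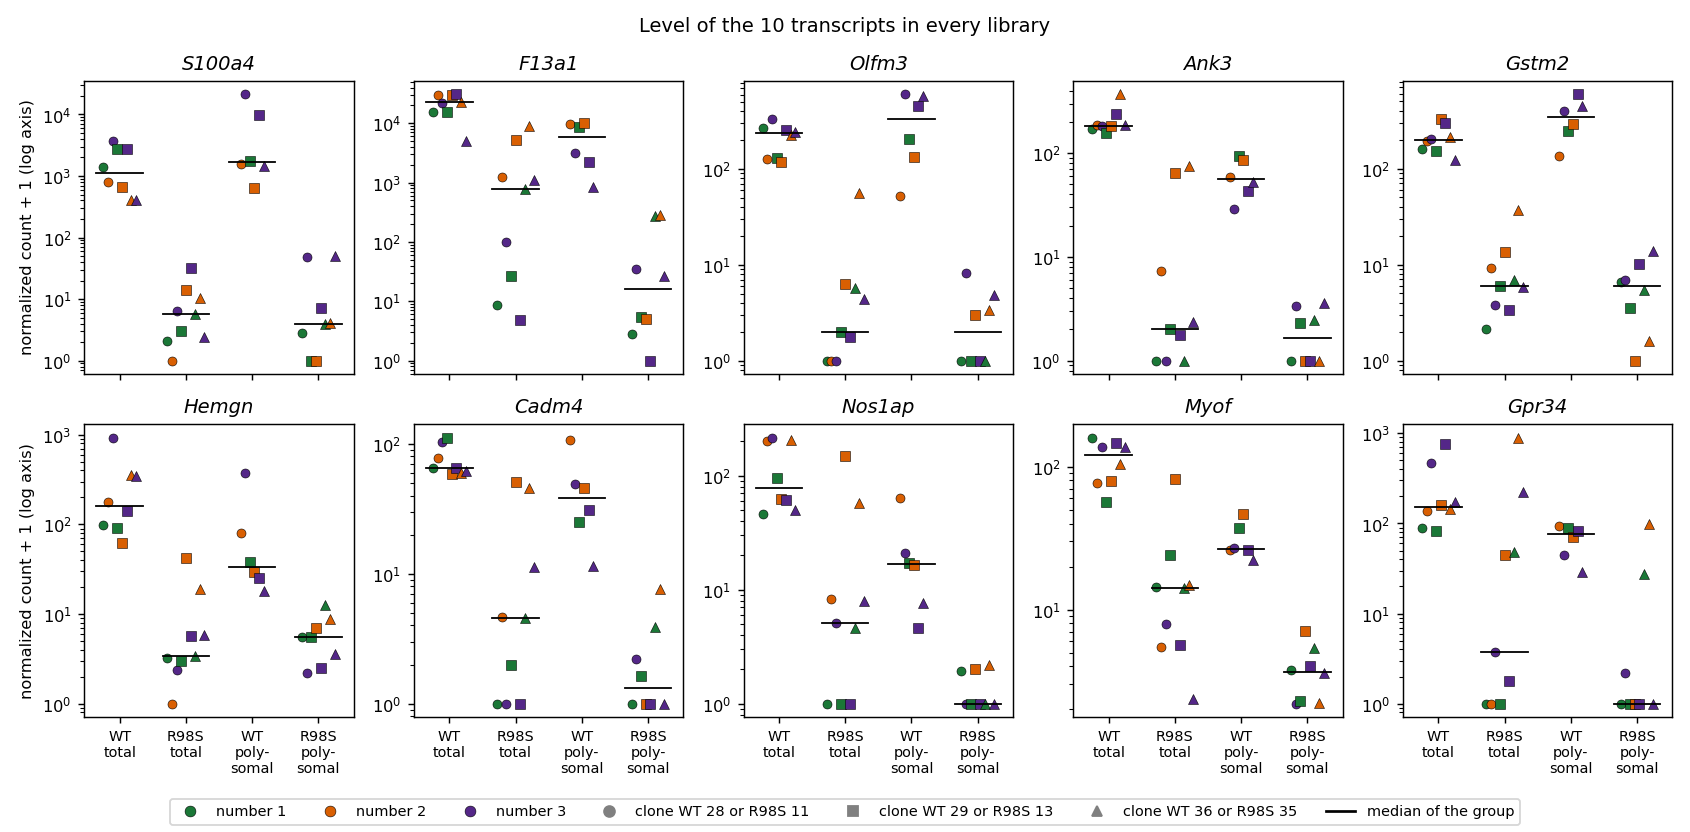
Level of each of the 10 transcripts in every library, as normalized count + 1 on a log axis, with points coloured by library number, shaped by clone, and a bar at the group median. R98S medians lie far below WT medians in both fractions, and in R98S total mRNA the orange number 2 points of clones 13 and 35 are the highest of the group for F13a1, Ank3, Cadm4 and Nos1ap.

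In total mRNA S100a4 was the member with the lowest share of its WT level, with an R98S median at 0.296% of the WT mean. In polysomal RNA this share was 0.0488%, and 0 for Nos1ap and Gpr34. In WT total mRNA it was at 1411, 792 and 3686 normalized counts in clone 28 (numbers 1, 2 and 3), at 2758, 657 and 2747 in clone 29, and at 408 and 414 in clone 36 (numbers 2 and 3). In R98S it was at 1.12, 0 and 5.51 in clone 11, at 2.00, 13.3 and 31.1 in clone 13, and at 4.77, 9.45 and 1.38 in clone 35. The groups did not overlap, the lowest WT library being at 408 and the highest R98S library at 31.1. WT polysomal RNA held 1580.0 and 21252 in clone 28 (numbers 2 and 3), 1742, 634 and 9825 in clone 29 and 1467 in clone 36, whereas R98S polysomal libraries held between 0 and 48.9, with a median of 2.97. The mean log2(value + 1) differed between R98S and WT by -7.82 in total mRNA and by -9.03 in polysomal RNA, the lowest value of the 11133 and of the 10707 genes tested, respectively. S100a4 was chosen on these same values, so this rank only restates the choice.

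F13a1 was the most abundant member and the one with the widest range among R98S libraries. WT total mRNA libraries held between 5067 and 30686 normalized counts, with a median of 22496, the lowest being number 3 of clone 36. R98S clone 11 held 7.81, 1252 and 101, clone 13 held 26.1, 5306 and 3.89, and clone 35 held 782, 8948 and 1107. The groups overlapped, since the number 2 libraries of clones 13 and 35 were above the lowest WT library, while the other 7 were below it. In polysomal RNA the groups did not overlap, with 857 to 10027 in WT and at most 287 in R98S.

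The hematopoietic gene Hemgn and the receptor Gpr34 differed in how the R98S clones ranked. Hemgn ranged from 61.1 to 930.2 normalized counts in WT total mRNA, with the highest value in number 3 of clone 28, and from 0 to 41.6 in R98S, where the 2 highest values were the number 2 libraries of clones 13 (41.6) and 35 (18.2). In polysomal RNA its WT libraries held between 17.2 and 372 and its R98S libraries between 1.19 and 11.7. The log2 means differed by -3.28, the difference nearest to 0 of the members tested there after Myof (-3.09). Erythroid markers, 10 of which were in the tables, summed to between 706 and 2739 in WT and between 455 and 1653 in R98S total mRNA, with Slc4a1 at 0 in every WT library, and their part in the difference of Hemgn was not tested.

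Gpr34 ranged from 82.3 to 763 normalized counts in WT total mRNA libraries, with a median of 150.5. Clone 11 held 0, 0 and 2.76, clone 13 held 0, 44.2 and 0.778, and clone 35 held 47.7, 898 and 224, so that its number 2 library was above every WT library and its number 3 library above the WT median. In the polysomal libraries of clone 35 Gpr34 was at 26.3, 97.1 and 0, against 27.8 to 92.5 in WT, and in those of the other R98S clones at most at 1.19. In total mRNA all 3 libraries of clone 35 and number 2 of clone 13 thus held Gpr34 above 40 normalized counts, and the other 5 R98S libraries at most 2.76.

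The skeletal, membrane and adhesion genes were at moderate levels in WT. Ank3 ranged among WT total mRNA libraries from 156 to 367 normalized counts, while R98S libraries held 0, 6.32 and 0 in clone 11, 1.00, 62.8 and 0.778 in clone 13, and 0, 74.1 and 1.38 in clone 35. No R98S polysomal library held more than 2.57, against 28.2 to 92.4 in WT. Cadm4 ranged from 57.4 to 111 in WT total mRNA and was at 49.5 and 45.1 in the number 2 libraries of R98S clones 13 and 35, at 10.3 in number 3 of clone 35 and at most at 3.61 in the other 6. Myof had the smallest distance between the genotypes in total mRNA, with a log2 difference of -3.21. It ranged from 56.0 to 159 in WT and from 1.38 to 80.5 in R98S, where number 2 of clone 13 was the only library inside the WT range.

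Gstm2, Olfm3 and Nos1ap completed the set. Gstm2 ranged from 123 to 331 normalized counts in WT and from 1.12 to 35.6 in R98S total mRNA. Olfm3 ranged from 117 to 332 in WT, was at 0 in all 3 total mRNA libraries of R98S clone 11 and reached 55.2 in number 2 of clone 35, the next highest R98S library being at 5.31. Nos1ap ranged from 45.4 to 215 in WT and was at 147 and 56.7 in the number 2 libraries of R98S clones 13 and 35, inside the WT range, and at most at 7.22 in the other 7. Its polysomal level was low also in WT (3.60 to 62.6), with a mean under 10 over all polysomal libraries. Nos1ap was therefore left out of the main tests that used polysomal RNA, and entered only those with no filter on low values.

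Levels were set relative to the WT mean of the same fraction. In total mRNA the median over the 10 members was 0.0181% and 0.484% in numbers 1 and 3 of R98S clone 11. It was 0.477% and 0.371% in numbers 1 and 3 of clone 13, and 2.97% and 2.04% in numbers 1 and 3 of clone 35. It was 21.1% in number 2 of clone 13 and 30.8% in number 2 of clone 35, and 3.47% in number 2 of clone 11. Within number 2 of clone 13 the members were not in one proportion, since S100a4 stood at 0.824% and Nos1ap at 126% of the WT mean. In number 2 of clone 35 the range was from 0.587% for S100a4 to 358% for Gpr34. Every polysomal R98S library had a median of at most 4.51%.

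**Figure D2:**
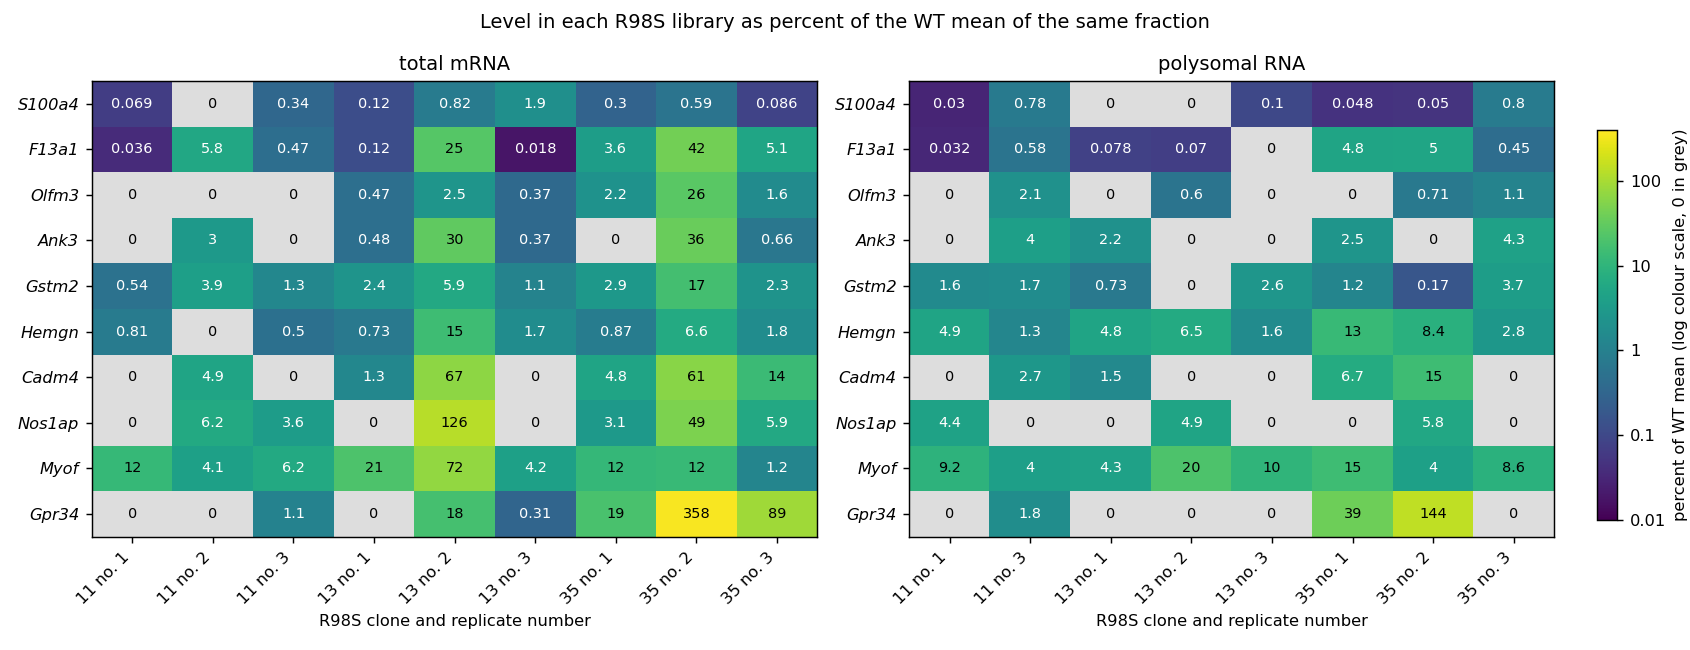
Level of each transcript in each R98S library as percent of the WT mean of the same fraction, on a log colour scale with values of 0 in grey. Number 2 of clones 13 and 35 stands out in total mRNA with medians of 21.1% and 30.8%, the polysomal libraries of the same cultures do not, and Gpr34 in number 2 of clone 35 is at 358%.

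Number 2 of the R98S clones stood apart in earlier results of these data, and the members were chosen for low values in R98S libraries, so its difference from numbers 1 and 3 is a description for the members and is given without a test. Over all genes, 0.629% of 11133 were called in total mRNA and 0.602% were called higher in number 2 (limma, two-sided, Benjamini-Hochberg adjusted p under 0.1, here and below). With the clone as a block 614 genes were called, and without number 2 of clone 13 there were 0. The log2 difference between number 2 and the other numbers was 5.83 for F13a1, 4.52 for Ank3, 4.11 for Nos1ap, 3.35 for Cadm4, 1.93 for Gstm2 and 0.05 for S100a4.

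The summed granulocyte markers were also highest in number 2 of each R98S clone in total mRNA. The same held in the WT clones, where number 2 was at 1586 in clone 28, 645 in clone 29 and 620.3 in clone 36 and the other numbers between 346 and 1295. In R98S they were at 251, 1427 and 440 in number 2 of clones 11, 13 and 35 and between 45.3 and 139 in numbers 1 and 3, while in polysomal RNA they were at 69.8 and 68.2 in number 2 of clones 13 and 35. The summed monocyte and macrophage markers were at 2319.6 and 2715 in number 2 of clones 13 and 35, but were highest in number 3 of clone 13 (3606), where the members had a median of 0.371% of the WT mean. The part of these cell types in the differences was not tested.

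In polysomal RNA, where number 2 is represented by clones 13 and 35, 14.5% of 10707 genes were called and 9.92% were called lower in number 2, whereas 0 were called without number 2 of clone 13 and 506 without number 2 of clone 35. The 2 number 2 libraries held 0 and 0.603 normalized counts of Gstm2 and the other 6 between 2.57 and 12.9, all values of a few reads. In total mRNA each R98S clone had its highest Gstm2 level in number 2. The R98S polysomal means were 0.963 for Ank3, 1.42 for Cadm4, 4.998 for Hemgn and 5.13 for Gstm2.

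The fractions of the same labelled cultures were then set side by side, after these values had been seen. The difference between number 2 and numbers 1 and 3 in the log2 polysomal to total ratio was called in 16.8% of 10627 genes and was negative in 10.5%, but only 9 genes were called without number 2 of clone 13, 425 without number 2 of clone 35 and 450 with the clone as a block. In number 2 of clone 13, F13a1 was at 5306 in total mRNA and 4.05 in polysomal RNA, Ank3 at 62.8 and 0, and Nos1ap at 147 and 1.01. In number 2 of clone 35, Ank3 was at 74.1 and 0, Gstm2 at 35.6 and 0.603 and F13a1 at 8948 and 287. Gpr34 was also lower in polysomal RNA there, at 898 and 97.1 (linear ratio 0.108), although 97.1 was above every WT polysomal library. S100a4 (9.45 and 3.02, ratio 0.319) and Hemgn (18.2 and 7.84, ratio 0.432) fell less in that culture. In number 3 of clone 35 F13a1 (1107 and 25.7) and Gpr34 (224 and 0) were also lower in polysomal RNA, as were Hemgn, Cadm4 and Nos1ap. S100a4 (1.38 and 48.9), Gstm2 (4.83 and 12.9), Olfm3, Ank3 and Myof were higher there. The cultures sequenced in both fractions other than number 2 held at most 1.38 normalized counts of Ank3 in total mRNA and at most 2.57 in polysomal RNA. Whether the labelled pairs come from one culture was not tested.

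**Figure D3:**
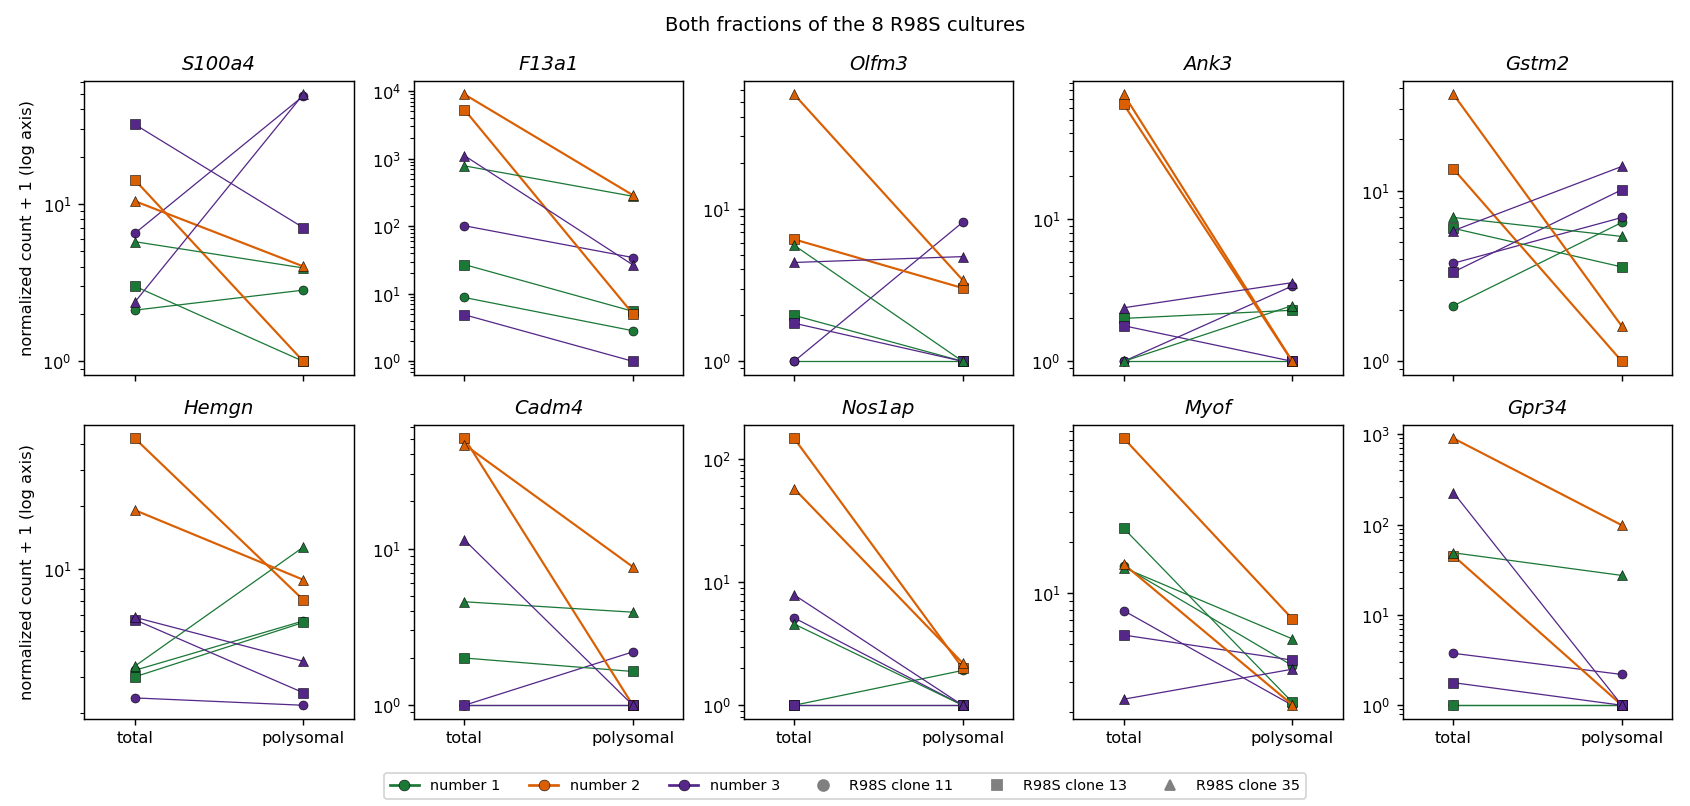
Normalized count + 1 on a log axis in total mRNA and polysomal RNA of the 8 R98S cultures sequenced in both, with lines joining the libraries that share a clone and a number. The orange number 2 lines of clones 13 and 35 fall steeply for F13a1, Ank3, Gstm2, Cadm4 and Nos1ap, for example from 74.1 to 0 for Ank3 in clone 35.

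Within WT clones the polysomal to total ratio, which the choice of members did not use, was tested over the 6 cultures sequenced in both fractions. The tables were scaled separately, and the median gene had a log2 ratio of -0.32, so ratios are to be read against that value. Of 10627 genes, 58.6% were called, 14.6% as higher and 44.0% as lower. The 1554 higher genes became 70, 127 and 205 when number 3 of clone 28, 29 or 36 was left out. When each culture was centred on its median gene, a setting added after the data were seen, 3264 genes were higher and 3030 lower, in place of 1554 and 4678. Of 9 members tested, 7 were called, 1 higher and 6 lower, and with centring all 9 were called, 3 higher and 6 lower.

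S100a4 was the member with the highest mean polysomal to total ratio, though not in every culture. Its linear ratio was 1.99 and 5.77 in numbers 2 and 3 of clone 28, 0.632, 0.965 and 3.58 in numbers 1 to 3 of clone 29 and 3.54 in number 3 of clone 36. The mean log2 ratio was 1.08 (SE 0.45, adjusted p = 0.0694, limma, n = 6; 0.62 and adjusted p = 0.0303 with the replicate number as a block), above that of 96.7% of the genes tested, and it was above the median gene in 5 of 6 cultures. The call was lost when number 2 or 3 of clone 28, number 3 of clone 29 or number 3 of clone 36 was left out, with adjusted p values of up to 0.179. Gstm2 had a mean log2 ratio of 0.64 (SE 0.30, adjusted p = 0.101, limma), which passed with the replicate number as a block (0.54, adjusted p = 0.0286). Olfm3 was at 0.42 (SE 0.29, adjusted p = 0.249, limma). Both were above the median gene in 5 of 6 cultures and were called higher with centring, Gstm2 at adjusted p = 0.0273 and Olfm3 at adjusted p = 0.0586.

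The other members had a lower mean polysomal than total level, with single cultures of Cadm4 (1.37 in number 2 of clone 28) and Gpr34 (1.07 in number 1 of clone 29) above a linear ratio of 1. F13a1 had a mean log2 ratio of -2.20 (SE 0.40, adjusted p = 0.00290, limma, n = 6), lower than that of all but 3.29% of genes, with linear ratios from 0.0738 to 0.572. Hemgn was at -1.93 (SE 0.43, adjusted p = 0.00656), with 0.0495 in number 3 of clone 36 and 0.173 to 0.467 in the other cultures. Gpr34 was at -1.80 (SE 0.47, adjusted p = 0.0133), Ank3 at -1.74 (SE 0.32, adjusted p = 0.00295) and Myof at -1.73 (SE 0.34, adjusted p = 0.00402), all by limma. Cadm4 was at -1.11 (SE 0.36, adjusted p = 0.0311, limma), nearer to the median gene, and did not pass without number 3 of clone 36 (adjusted p = 0.104). Nos1ap, not tested in the main analysis, had linear ratios from 0.0592 to 0.312. With no filter on low values all 10 members were tested and 6 were called, 0 higher and 6 lower. Of 18946 genes 6349 were called there, 1043 higher and 5306 lower. The ratios moved with the library number. Over all genes the SD of the log2 ratio was 1.33 to 1.39 in the number 3 cultures and 0.618 to 1.02 in the others, and the 3 highest ratios of S100a4 and the 3 lowest of F13a1, Ank3, Gpr34 and Myof were all number 3 cultures. With the replicate number as a block 8 members were called, 2 higher and 6 lower. Over all genes 6786 of 10627 were then called, 1784 higher and 5002 lower.

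**Figure D4:**
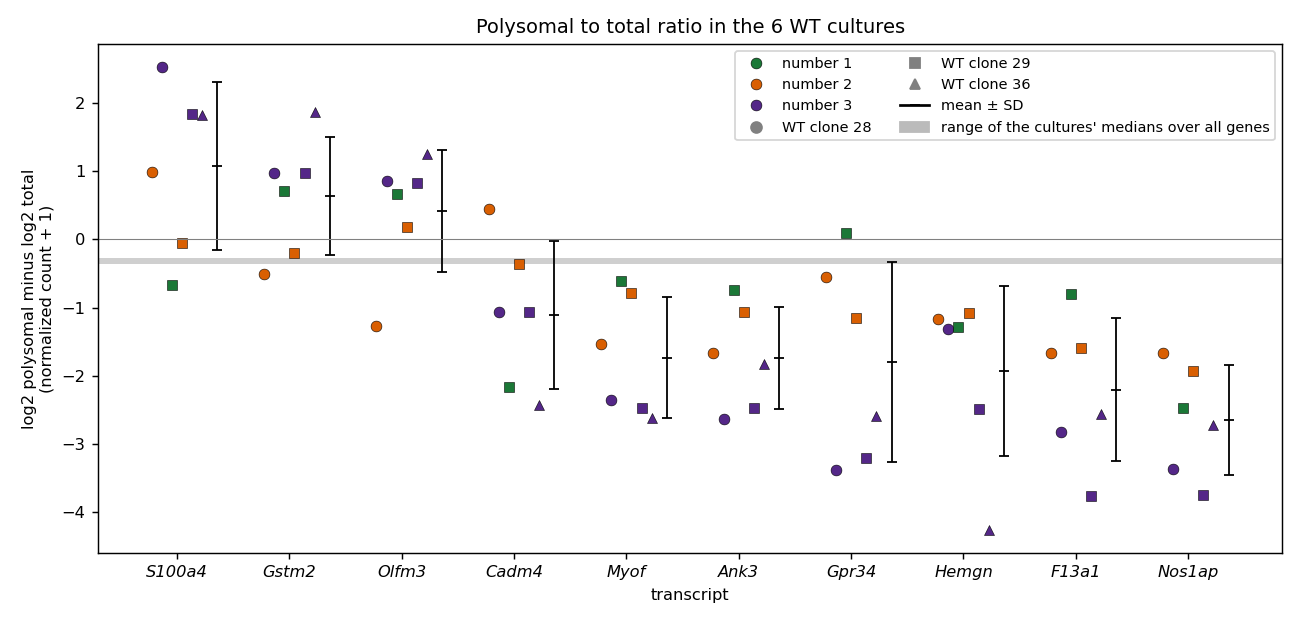
Log2 polysomal minus log2 total level of each transcript in the 6 WT cultures, with points coloured by number and shaped by clone, mean ± SD bars, and a grey band for the cultures' medians over all genes. S100a4, Gstm2 and Olfm3 have mean ratios of 1.08, 0.64 and 0.42, above the band, and the other 7 lie below it, with F13a1 at -2.20.

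Levels among the WT clones were compared in the same way, to ask whether the members also differ between clones of one genotype. Between clones 29 and 28, 0.0180% of 11133 genes were called in total mRNA and 0.121% of 10707 in polysomal RNA, and between clone 36 and the other 2, 0.0359% in total mRNA. None of the members was called in any of the 3 limma comparisons. Of the members, 0 of 10, 1 of 9 and 1 of 10 had an unadjusted p under 0.05, edgeR called 0 in each, and DESeq2 called 0, 1 and 1. Over all genes DESeq2 called 13 of 11133, 86 of 10707 and 57 of 11133. The 1 member in clone 36 against 28 and 29 was S100a4, which had a log2 difference of -2.01 (SE 0.68, adjusted p = 1 in limma and 0.0362 in DESeq2). Both clone 36 libraries of S100a4 lay below every other WT library. In polysomal RNA it was Hemgn, which was 2.50 lower in clone 29 than in clone 28 (SE 0.71, adjusted p = 0.889 in limma and 0.0101 in DESeq2). With the replicate number as a block S100a4 was called in that comparison (-1.21, adjusted p = 0.0618), where 114 of 10707 genes were.

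Genes of the same families or pathways were compared between the genotypes with lists written for this purpose. In total mRNA, 30.3% of 11133 genes were called and 15.8% were called lower in R98S. Of the 71 tested genes in the 10 lists, 8 were higher and 20 lower. With the replicate number as a block 34 were called, 24 of them lower, where 4277 of 11133 genes were called, 2220 of them lower. In polysomal RNA, where 13.5% of 10707 genes were called, 7 of 65 were higher and 7 lower, and with the replicate number as a block 31 were called, where 30.9% of all genes were. Adjusted p values in the next paragraphs are from limma in total mRNA unless stated. These tests counted each library as a replicate, so n is a number of libraries. The genotype differs only between clones, and the spread between clones was not modelled.

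Of 5 S100 genes tested, 3 were lower, with a median log2 difference of -0.44 against 0.00 over all genes. In polysomal RNA 1 of 5 was lower, 3 with the replicate number as a block and 0 without the number 2 libraries of R98S clones 13 and 35, and in total mRNA without those libraries 1 was higher and 3 were lower. S100a10 was at 3113 ± 878 (SD, n = 9) in R98S and 4584 ± 665 (n = 8) in WT (log2 difference -0.60, adjusted p = 0.0112), S100a1 fell by 0.44 (adjusted p = 0.0148), and S100a6 was at 45.9 ± 129 and 522 ± 855 (-3.84, SE 1.49, adjusted p = 0.0705). S100a11 was at 1310 and 1548 (adjusted p = 0.393). Transglutaminase relatives of F13a1 did not pass in total mRNA (0 of 3), with Tgm2 at 1159 ± 998 in R98S and 1047 ± 385 in WT (adjusted p = 0.679), Tgm1 at 338 and 298 and Epb4.2 at 144 and 177 (log2 difference 0.40). In polysomal RNA Epb4.2 rose, with 83.1 ± 36.6 in R98S and 29.9 ± 25.1 in WT (1.70, SE 0.47, adjusted p = 0.0307). Without the number 2 libraries of R98S clones 13 and 35, 0 of these 3 genes were called there. No other olfactomedin gene reached a mean of 10.

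The skeleton and membrane lists held a few large decreases beside abundant genes that did not pass. Of 15 ankyrin and spectrin skeleton genes 1 was higher and 2 were lower, and with the replicate number as a block 3 were higher and 2 lower. Add2, an adducin, was at 421 ± 450.0 in R98S and 1386 ± 936 in WT (-2.22, SE 0.56, adjusted p = 0.00770), and Epb4.1l1 fell by 0.52 (adjusted p = 0.0232). The abundant spectrins Sptbn1 (adjusted p = 0.240) and Sptan1 (adjusted p = 0.676) and the adducin Add3 (adjusted p = 0.179) did not pass. Of 9 ferlin and membrane repair genes 1 was higher and 2 lower, and with the block 3 were lower. Ahnak, a large scaffold protein of the membrane skeleton, was at 45.5 ± 51.5 in R98S and 418 ± 218 in WT (-3.66, SE 0.49, adjusted p = 3.53e-05), Ehd1 fell by 0.26 (adjusted p = 0.0337) and Anxa6 rose by 0.57 (adjusted p = 0.000794), while Anxa2 (adjusted p = 0.140) and Anxa5 (adjusted p = 0.346) did not pass. Of 3 nectin and Cadm relatives of Cadm4 tested, the immune receptor Tigit fell by 0.88 (adjusted p = 0.0159), and Pvrl4 and Pvr did not pass. In polysomal RNA 1 of 3 was higher and 0 were lower.

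Nos1, the neuronal nitric oxide synthase that Nos1ap binds, was lower in R98S. It was at 168 ± 212 (n = 9) in R98S and 1247 ± 467 (n = 8) in WT total mRNA (-3.79, SE 0.59, adjusted p = 0.000176), and at 28.0 ± 19.7 and 587 ± 374 in polysomal RNA (-4.41, SE 0.55, adjusted p = 6.09e-05). Of the other partners tested, Dlg4 fell by 0.64 (adjusted p = 0.0853) and Scrib did not pass (0.03, adjusted p = 0.868). Of 11 glutathione transferases 1 was higher and 3 were lower. Gstz1 fell by 0.51 (adjusted p = 0.000998), Mgst2 fell by 0.77 (adjusted p = 0.0169) and Gstt2 rose by 0.76 (adjusted p = 0.00861), while the abundant Gsto1 (adjusted p = 0.291), Gsta4 (adjusted p = 0.682) and Gstp1 (adjusted p = 0.457) did not pass.

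Of 16 erythroid and megakaryocyte genes, 7 were lower (10 with the replicate number as a block) and 1 was higher, with a median log2 difference of -0.58. The alpha globin gene Hba-a1 was at 24.9 ± 43.1 in R98S and 168 ± 123 in WT (-3.41, SE 0.59, adjusted p = 0.000484), the platelet glycoprotein gene Gp9 at 47.3 ± 25.4 and 136 ± 47.7 (-1.60, SE 0.31, adjusted p = 0.000995), and the GATA1 cofactor gene Zfpm1 fell by 0.79 (adjusted p = 0.000962). Gata2 (adjusted p = 0.226) and Itga2b (adjusted p = 0.113), both abundant, did not pass. In polysomal RNA 3 of 12 were lower, and 5 with the replicate number as a block. The receptors related to Gpr34 went the other way, with 4 of 6 higher and 0 lower, and a median of 0.86. Gpr183, a receptor for oxysterols, was at 520.1 ± 435 in R98S and 10.3 ± 15.5 in WT (5.88, SE 0.53, adjusted p = 2.47e-07), Lpar6 rose by 1.47 (adjusted p = 0.000225), Gpr171 rose by 1.05 (adjusted p = 0.0538), P2ry14 rose by 0.66 (adjusted p = 0.0641), and Gpr174 did not pass (adjusted p = 0.621).

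The nearest genes on the chromosomes were examined because neighbours were not chosen by the readout. Among the 60 neighbours (3 tested genes on each side of each member), 27 were called between the genotypes in total mRNA, 9 higher and 18 lower, which is 45% where 30.3% of all genes tested were called. With 5 genes on each side the share was 40% of 100. With libraries or a clone left out, 18 to 31 of the 60 were called, where 1895 to 3878 of 11133 genes were. With the replicate number as a block 4277 of 11133 genes were called. Of the nearest neighbours, S100a6 and Cask had decreases as large as those of some members. S100a6, 6.84 kb from S100a4, is given above, and Cask, the gene that contains Gpr34 and encodes a membrane-associated scaffold kinase, was lower by 4.70 on the log2 scale (SE 1.12, adjusted p = 0.00543). The called nearest neighbours otherwise differed less. They were Cdk1 beside Ank3 (-0.57, adjusted p = 0.000163), S1pr1 beside Olfm3 (-1.19, adjusted p = 0.0465), Rreb1 beside F13a1 (-0.52, adjusted p = 0.0418), Exoc6 and Cep55 beside Myof (-0.40 and -0.41), Xpa beside Hemgn (0.45) and Sh2d1b2 beside Nos1ap (0.49). The nearest genes of Cadm4, Plaur at 6.05 kb (-0.08) and Zfp428 at 2.47 kb (0.28), did not pass, nor did Gstm1 (0.43, adjusted p = 0.620) and Csf1 (-0.41, adjusted p = 0.340) beside Gstm2. Fars2 beside F13a1, Rnpc3 beside Olfm3, Ccdc6 beside Ank3, Anp32b beside Hemgn, Atf6 beside Nos1ap, Fundc1 beside Gpr34 and S100a13 beside S100a4 did not pass either. The nearest tested gene was not always close. Fundc1 lay 3916 kb from Gpr34, Rnpc3 1274 kb and S1pr1 585 kb from Olfm3, and Rreb1 728 kb from F13a1. Beyond the nearest gene, but among the 3 nearest, Nyx beside Gpr34 (-1.75), Arid5b at 1120 kb from Ank3 (-1.26), Kcnn4 beside Cadm4 (-1.22) and Ampd2 beside Gstm2 (-0.73) had the largest called decreases. Trim14 beside Hemgn had the largest called increase there (0.72).

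Likeness between transcripts was described over the same libraries that served to choose the members, so that it includes the difference between the genotypes. Across the 17 total mRNA libraries, the Pearson correlation of log2(value + 1) between 2 members had a median of 0.851 over the 45 pairs (0.532 to 0.961), and within the 9 R98S libraries a median of 0.689 (-0.05 to 0.915). Within the 8 WT libraries the median was 0.234 (-0.49 to 0.899), and these values are descriptions over libraries that share clones and numbers. Among 9249 other genes with a mean of at least 100, the gene most like F13a1 was Cask (r = 0.988 in total mRNA and 0.973 over the 14 polysomal libraries). Cask was at 811 and 459 in number 2 of R98S clones 13 and 35 in total mRNA, inside the WT range of 331 to 1174, and at 0 and 26.5 in the polysomal libraries of the same labels. The genes most like 8 others were Ttc39c for Cadm4 (r = 0.981), Grap2 for Ank3 (0.967), Zmat1 for Nos1ap (0.967), Hnrnpa1 for Olfm3 (0.965), Lmo2 for Hemgn (0.955), Apobec1 for Gstm2 (0.946), Orc6 for S100a4 (0.942) and Cdkn2aip for Gpr34 (0.913). Over the polysomal libraries r was 0.323 for Cdkn2aip, 0.749 for Lmo2 and 0.784 for Orc6, and between 0.814 and 0.962 for the other 5. Some of these matched in shape and not in size. Hnrnpa1 had a mean of 16441 in R98S and 25105 in WT.

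The members were not a closed class. In total mRNA 42 other genes had a decrease at least as large as that of Myof, the member with the smallest one (-3.21 on the log2 scale). The 4 largest were Ptplad2 (-5.48, with 654 ± 307 in WT and a median of 16.7 in R98S), the adaptor gene Grap2 (-5.42, 513 ± 258 and 7.59), the hormone gene Fgf23 (-5.34, 311 ± 457 and 0) and Gas7 (-5.06, 230.0 ± 198 and 2.07). Each of these decreases was larger than that of Gstm2 (-4.88), Cadm4 (-3.96), Nos1ap (-3.97), Gpr34 (-4.04) and Myof. The highest R98S library held 354 normalized counts of Ptplad2 and 21.0 of Gas7, which was below the highest R98S level of every member.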

How the data were processed

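Ba/F3 total mRNA and polysomal RNA libraries were grouped by the genotype, clone and number in their labels. The members and gene lists were chosen with earlier results of these data known. Libraries were made with a stranded poly(A) kit. Reads were aligned by the authors to mm10 with TopHat2 (2.0.11), kept at a mapping quality of at least 10 and counted per gene, and the tools Bowtie2, SAMtools, HTSeq and DESeq2 are also named in the submitters' processing notes. The use of strand in counting was not given in the sources used here. The deposited values are a signal, reads divided by the DESeq2 size factor of the library, scaled separately in each table. Whole reads were recovered for 100% of values (within 0.01 of a whole number).

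Tests used limma 3.58.1 (R 4.3.3) on log2(value + 1), genes with a mean of at least 10, eBayes with a variance trend and Benjamini-Hochberg adjustment, two-sided, with calls at adjusted p under 0.1. Fold changes are on this scale and understate changes of low genes. Scripts were tested on simulated data. edgeR 4.0.16 and DESeq2 1.42.0 on the recovered reads, other filters, pseudocounts and scalings, blocks and left-out libraries were alternatives. Deviations of libraries with the same number correlated (r from 0.409 to 0.867), so the numbers pair the libraries. Values with the number as a block are given beside part of the results whose calls they change. Libraries of one clone are not known to be independent cultures, and P values measure the spread between libraries.

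Named genes are the members, from each list up to 3 tested genes with the highest level and up to 3 called with the smallest adjusted p, the nearest and the called neighbours, the gene most like each member, and up to 5 other genes that fell as far. A few genes that this rule names are not reported here. Of the called neighbours beyond the nearest, those with the largest change were named.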

Additional observations from a re-analysis of the deposited data

Results flagged for a closer look

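In 50 groups of member values tested for a single distant library, 2 were found, and chance gives about 1 in 20 groups. F13a1 was lowest in number 3 of WT clone 36, at 5067 normalized counts in total mRNA, where the other 7 WT libraries held at least 15348. Olfm3 was highest in number 2 of R98S clone 35, at 55.2 in total mRNA, where the other 8 R98S libraries held at most 5.31.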

How the results depend on the processing

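In the WT polysomal to total ratio the 7 called members kept their direction under every alternative in which they were tested. F13a1 passed under all 15 alternatives, and Ank3, Hemgn, Myof and Gpr34 under the 14 in which they were tested. S100a4 lost the call under 5 of 15 and Cadm4 under 3 of 14. The number of members called, 7 in the main analysis, was 3 of the 4 tested with a mean of at least 50, and 5 to 8 with 1 culture left out. With the replicate block 8 were called, where 6786 of 10627 genes were. The WT clone comparisons called 0 members when any library was left out. DESeq2 called 1 member in clone 36 against 28 and 29 (57 of 11133 genes). In the polysomal comparison of clones 29 and 28 DESeq2 called 1 (86 of 10707 genes), and the replicate block also called 1 (114 of 10707).

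For R98S number 2 against numbers 1 and 3 the 70 genes called in total mRNA became 22 with no filter on low values, 3 with no variance trend, 128 with edgeR, 570 with DESeq2, 614 with the clone as a block and 0 to 377 with 1 library left out. In polysomal RNA the 1548 genes became 579 with no filter and 0 to 1928 with 1 library left out. For the ratio of the fractions the 1783 genes became 0 with no filter, 450 with the clone as a block and 9 to 2507 with 1 culture left out. The cause was not tested. Where leaving out a library left number 2 with a single one, it was assumed to vary like the others.

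Between the genotypes 3369 genes were called in total mRNA, 1895 without clone 11 and 2213 without clone 28. In polysomal RNA 1449 were called, 3307 with the replicate block and 822 without clone 35. In polysomal RNA the 14 list genes called became 22 with DESeq2, 9 without clone 13 and 6 without clone 35, and in total mRNA the 28 became 18 without clone 11 and 18 without clone 28. At this depth a member at 3 reads or fewer cannot be told from one that is not expressed.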
